A study of Homo sapiens with 66 samples.

Results

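Binding of the hypoxia-inducible factors (HIF) was examined at 8 genes that encode growth factors, their receptors or their binding proteins, namely TGFA, AREG, EGFR, AXL, MET, CXCR4, IGFBP1 and IGFBP3. A peak belonged to one of these genes when its centre lay in the gene body, or within 100 kb of one of its transcription start sites, and when no other protein-coding gene was nearer. Across 50 peak lists, 294 of 131425 peaks met this rule, and they merged into 47 of the 50169 sites of the series, where a site is a run of peaks from any list that overlap by at least 1 bp. The 47 sites belonged to 7 of the 8 genes, and AREG had none. Under the same rule, 58.1% of the 20163 protein-coding genes had a peak.

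Chromatin immunoprecipitation with sequencing (ChIP-seq) was carried out with antibodies to HIF-1α, HIF-2α and HIF-1β, and each library gave 1 list of called peaks with a score but no read depth. The score is that of the peak caller MACS, −10 times the log10 of its p-value, and peaks are given below by their rank by score within the list (rank 1 is the highest). A rank depends on the length of the list. All cells were human and each group below had 2 libraries per antibody. HKC-8 is a kidney proximal tubule line, and in a severity and duration experiment it was exposed for 6 h to 3% oxygen, or to 0.5% oxygen for a time of 6 h, 16 h or 48 h (24 libraries). A knockout experiment compared HKC-8 wild-type cells (WT) with 1 CRISPR-Cas9 clone lacking HIF-1α (HIF-1α KO) and 1 lacking HIF-2α (HIF-2α KO), each after 16 h at 0.5% oxygen (14 libraries, with no list for the isoform that had been removed). RCC4 is a renal carcinoma line without functional VHL, so that HIF-α is stable in air, and it was studied in normoxia (6 libraries). HepG2 is a liver cancer line, kept in 0.5% oxygen for 16 h (6 libraries). The RCC4 libraries for HIF-1β are numbered 2 and 3. Each knockout rests on a single clone, so clone and genotype cannot be told apart, and because the deleted isoform was not precipitated in its own knockout, the lists hold no check of the deletion. Peak lists hold no RNA levels, so the identity of the lines was not checked against markers. The study describes the 2 libraries of a group as independent ChIP-seq experiments, the labels do not say whether the cultures were separate, and p-values measure only the spread between these libraries.

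HIF binds DNA as a dimer of an oxygen-labile α subunit, HIF-1α or HIF-2α, with the stable partner HIF-1β, and the dimer recognises a short core motif within hypoxia response elements (HRE). Transforming growth factor alpha (TGFA) and amphiregulin (AREG) are ligands of the epidermal growth factor receptor (EGFR), a receptor tyrosine kinase. AXL and MET are receptor tyrosine kinases for GAS6 and for hepatocyte growth factor, CXCR4 is the chemokine receptor for CXCL12, and IGFBP1 and IGFBP3 are secreted proteins that bind insulin-like growth factors. In clear cell renal carcinoma, where VHL is commonly lost, several of these genes have long been studied as targets of HIF.

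Sites are named here by gene and by the distance in kb of the site centre from the 5′ end of the gene, negative when upstream. The most frequently called site of each of 6 genes is shown with 100 bases to either side of its centre (GRCh37, plus strand), because the calls described below rest on these sites. Capitals mark the HRE core (ACGTG or GCGTG, on either strand) and the AP-1 motif (TGACTCA or TGAGTCA, each the reverse complement of the other). TGFA −43 kb is chr2:70823890-70824090, intergenic. EGFR +167 kb is chr7:55253987-55254187, in an intron of EGFR. AXL +7 kb is chr19:41732069-41732269, in an intron of AXL. MET +35 kb is chr7:116346703-116346903, in an intron of MET. IGFBP1 −6 kb is chr7:45921524-45921724 and IGFBP3 −57 kb is chr7:46017981-46018181, both intergenic.
TGFA −43 kb: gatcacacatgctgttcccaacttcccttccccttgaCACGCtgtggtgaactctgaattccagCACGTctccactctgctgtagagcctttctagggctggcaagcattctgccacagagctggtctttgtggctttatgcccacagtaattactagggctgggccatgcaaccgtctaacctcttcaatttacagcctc
EGFR +167 kb: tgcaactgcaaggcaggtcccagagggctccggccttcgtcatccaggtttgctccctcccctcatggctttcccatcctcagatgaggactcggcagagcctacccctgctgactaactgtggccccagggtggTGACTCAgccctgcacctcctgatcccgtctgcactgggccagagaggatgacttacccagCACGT
AXL +7 kb: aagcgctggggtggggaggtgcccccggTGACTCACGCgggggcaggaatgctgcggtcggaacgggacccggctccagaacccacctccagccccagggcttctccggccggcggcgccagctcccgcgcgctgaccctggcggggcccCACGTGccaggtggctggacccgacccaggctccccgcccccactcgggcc
MET +35 kb: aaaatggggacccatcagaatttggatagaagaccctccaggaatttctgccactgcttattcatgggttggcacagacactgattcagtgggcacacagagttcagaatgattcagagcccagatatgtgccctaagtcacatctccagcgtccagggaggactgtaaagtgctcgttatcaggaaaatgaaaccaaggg
IGFBP1 −6 kb: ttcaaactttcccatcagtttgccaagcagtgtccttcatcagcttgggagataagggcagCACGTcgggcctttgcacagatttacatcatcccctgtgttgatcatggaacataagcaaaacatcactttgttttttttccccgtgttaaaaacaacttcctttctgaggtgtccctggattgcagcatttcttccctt
IGFBP3 −57 kb: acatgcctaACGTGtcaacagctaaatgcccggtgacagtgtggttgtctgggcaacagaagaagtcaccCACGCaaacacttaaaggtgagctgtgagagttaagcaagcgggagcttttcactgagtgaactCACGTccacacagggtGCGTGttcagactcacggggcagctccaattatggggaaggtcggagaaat

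The 6 windows differ in motif content. IGFBP3 −57 kb holds 4 HRE cores, AXL +7 kb holds 3, TGFA −43 kb holds 2, and EGFR +167 kb and IGFBP1 −6 kb hold 1 each. In TGFA −43 kb the HRE cores lie 61 and 34 bases to the left of the centre, and in IGFBP1 −6 kb the single core lies 37 bases to the left. The only HRE core of the EGFR +167 kb window lies at its edge, 98 bases from the centre, while an AP-1 motif lies 38 bases from the centre. The whole EGFR +167 kb site, of 2800 bases, holds 6 HRE cores and 1 AP-1 motif. AXL +7 kb holds 1 AP-1 motif, which overlaps an HRE core, and 2 of its HRE cores are both strands of 1 palindromic CACGTG. The MET +35 kb window holds neither motif. Over the whole series, 33.9% of the 50169 sites held an HRE core and 7.98% an AP-1 motif in a window of this length. The 6 sites shown were each called in at least 4 libraries, and of all such sites 61.1% held an HRE core and 15.5% an AP-1 motif.

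Several facts about the lists bear on every comparison. A library had 3470 to 6851 peaks in HepG2, 911 to 5680 in RCC4 and 915 to 8279 in the knockout experiment, but only 237 to 1793 when severity and duration were varied. The shortest list, the second HIF-2α library at 48 h, held 237 peaks and none at these genes. HIF-2α lists of WT HKC-8 (4537 and 6749 peaks) were longer than the HIF-1α lists (1913 and 1535). In HepG2, the share of peaks within 1 kb of a protein-coding start was 8.35% and 30.5% in the first and second library labelled HIF-1α, and 32.3% and 10.1% in those labelled HIF-2α, so that the libraries paired across the labels. HepG2 values are therefore given as labelled, and the tests between the isoforms are given with and without HepG2. Of the RCC4 libraries labelled HIF-1α, the first had 5680 peaks, 41.2% of them within 1 kb of a start, and the second 2120 peaks, 18.2%.

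Of the 47 sites, 23 lay in introns, 22 between genes and 2 in exons, and 5 (10.6%) lay within 1 kb of a start of their own gene, against 11.7% of all sites in the series within 1 kb of any protein-coding start. Among the sites called in at least 4 libraries the shares were 9.52% (2 of 21) and 22.5%. A call in 1 library only was the case for 18 sites (38.3%, against 71.0% of all sites in the series), and 21 sites (44.7%, against 17.1%) were called in at least 4 libraries. Of these 21, 16 lay over 10 kb from the 5′ end of their gene, and the share over all sites was not computed. A site far from the 5′ end can be nearer to another start of its gene. EGFR +167 kb, for 1, lay 6.42 kb from the nearest annotated start of EGFR. EGFR had 19 sites and 128 peaks, MET 8 and 34, TGFA 7 and 42, CXCR4 4 and 8, IGFBP3 4 and 34, AXL 3 and 38, and IGFBP1 2 and 10. The rule covers the whole gene body, and the genes range in length from 4.83 kb (CXCR4) to 193 kb (EGFR). These counts are therefore not read as a density of binding. The rule counted protein-coding genes only. For 15 of the 47 sites a gene of another type was as near or nearer, among them TGFA −43 kb, IGFBP3 −57 kb, EGFR −51 kb and EGFR +167 kb, the last of which also lies in the body of the antisense gene EGFR-AS1.

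**Figure D1:**
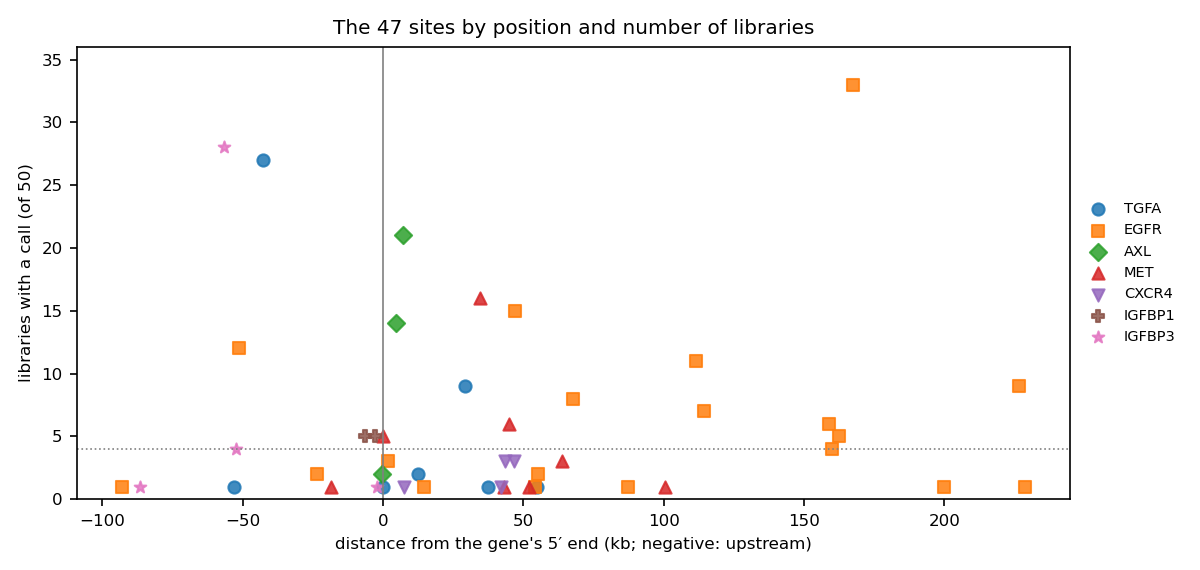
Position and recurrence of the 47 sites. The horizontal axis gives the distance of the site centre from the 5′ end of its gene in kb, the vertical axis the number of the 50 libraries with a call, the solid line the 5′ end and the dotted line 4 libraries. The sites called most often, EGFR +167 kb (33 libraries), IGFBP3 −57 kb (28) and TGFA −43 kb (27), lie far from the 5′ end, though EGFR +167 kb lies 6.42 kb from another start of EGFR.

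The series asked which sites are bound by HIF-1 and which by HIF-2. In the severity and duration experiment the HIF-1α and HIF-2α lists were similar in total length, 9104 and 8314 peaks over 8 libraries each, yet 1 HIF-1α peak and 24 HIF-2α peaks lay at these genes, with 20 HIF-1β peaks among 9546. In WT HKC-8, 13 of 3448 HIF-1α peaks and 35 of 11286 HIF-2α peaks did so. In RCC4 the counts were 16 of 7800 and 20 of 7307, and in HepG2, as labelled, 22 of 10321 and 16 of 9686. These counts cover 8 libraries per isoform in the severity and duration experiment and 2 in each of the others, so they are not compared between experiments. Per 1000 peaks of the lists, HIF-2α had the larger value in the severity and duration experiment (2.89, against 0.110 for HIF-1α) and in RCC4 (2.74 against 2.05). HIF-1α had the larger value in WT HKC-8 (3.77, against 3.10 for HIF-2α) and in HepG2 (2.13 against 1.65).

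Each gene was then compared over the 7 conditions that have lists for both isoforms, 14 libraries of each. AXL was called in 11 HIF-2α and 2 HIF-1α libraries, TGFA in 11 and 4, IGFBP3 in 9 and 5, EGFR in 9 and 7, MET in 5 and 4, CXCR4 in 3 and 0, IGFBP1 in 2 and 2, and AREG in none. CXCR4 had too few calls (under 4 libraries) to be tested. In an exact permutation test of the difference in libraries called, two-sided, with labels permuted within condition, AXL had p = 0.000772 and TGFA p = 0.00463. The TGFA difference came from the severity and duration experiment alone. In WT HKC-8 and in RCC4 both isoforms were called at TGFA in both libraries, and in HepG2 neither was called. The exact p was 0.188 for IGFBP3, 0.583 for EGFR, and 1 for MET and for IGFBP1. None passed after Benjamini-Hochberg adjustment of these permutation p-values over the 3941 genes tested, with an adjusted p of 0.285 for AXL, a value that no gene undercut, 0.372 for TGFA and 1 for the other 4. Over all genes tested, 0% passed the adjusted threshold, and at an unadjusted p under 0.05 the shares were 3.83% (151 genes) with more HIF-2α and 1.93% (76 genes) with more HIF-1α calls. A larger number of HIF-2α than of HIF-1α libraries was found for 5 of the 6 tested growth factor and receptor genes and for 44.7% of all tested genes. The median difference was 3 libraries for the 6 genes and 0 for all genes. A difference of at least 9, as for AXL, was found for 16 of the 3941 genes (0.406%), and one of at least 7, as for TGFA, for 69 (1.75%).

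**Figure D2:**
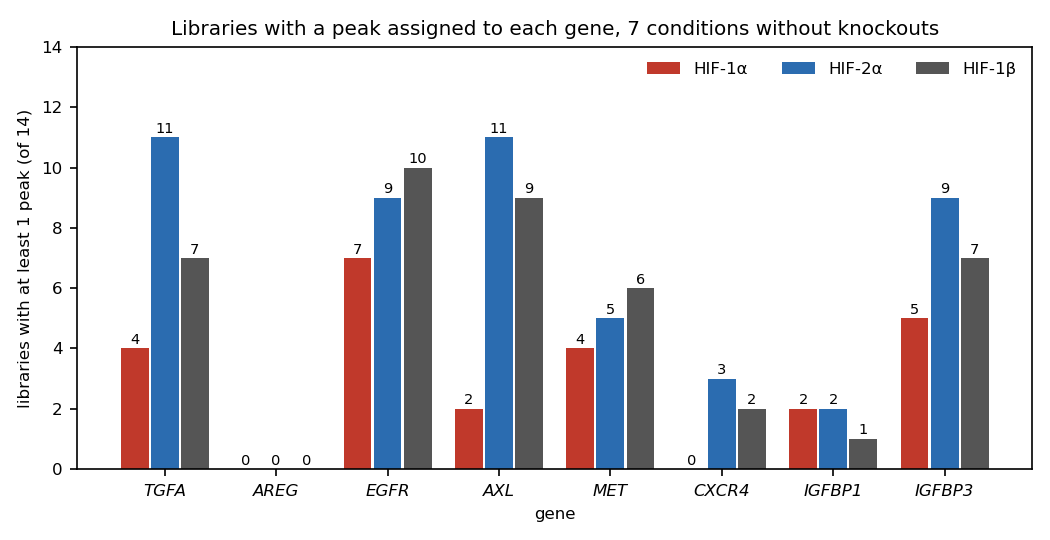
Libraries with at least 1 peak at each gene, of 14 per antibody, over the 7 conditions without knockouts. The bars give counts of libraries for HIF-1α, HIF-2α and HIF-1β. TGFA and AXL reach 11 HIF-2α libraries against 4 and 2 for HIF-1α, whereas the counts of MET and IGFBP1 differ by at most 1 between the isoforms.

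**Figure D3:**
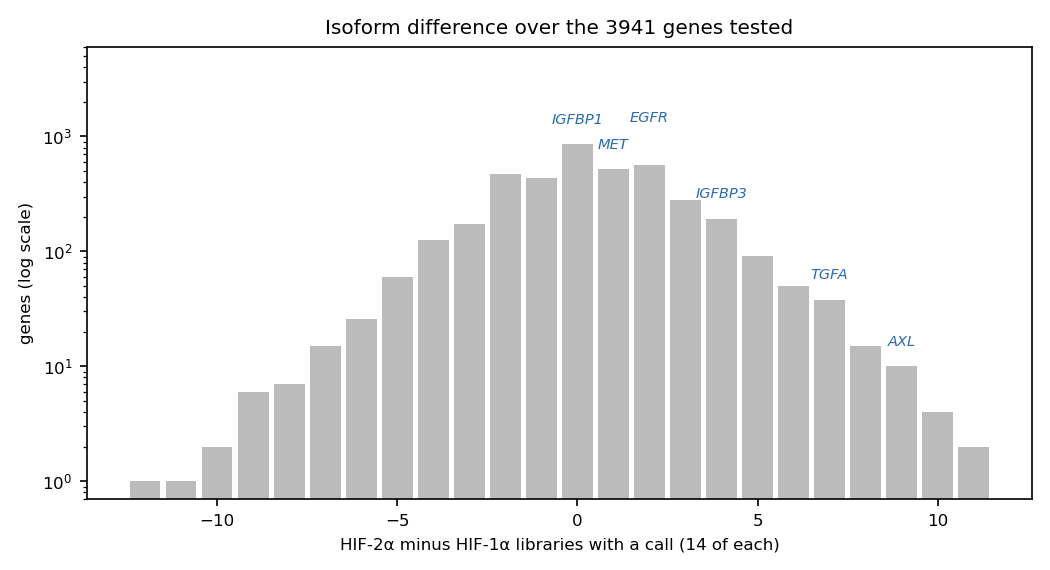
Number of HIF-2α minus number of HIF-1α libraries with a call, over the 3941 genes tested, with the number of genes on a log axis. The 6 tested growth factor and receptor genes are written above the bar that holds them, from IGFBP1 at 0 to AXL at 9.

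Leaving out HepG2 did not move the difference of AXL (9, exact p = 0.000772, permutation p adjusted over 2618 genes = 0.104), of TGFA (7, adjusted p = 0.181), of EGFR (2) or of MET (1), and for IGFBP3 it became 5 (exact p = 0.0417, adjusted p = 0.443). All 5 genes tested without HepG2 then had more HIF-2α calls, against 53.1% of the 2618 genes, with a median difference of 5 against 1 over those genes. When the lists of a condition were cut to equal length, the difference was 6 for AXL (exact p = 0.0139) and 7 for TGFA (exact p = 0.00463). With peaks of score 100 or more, AXL kept a difference of 7 (exact p = 0.0104), whereas that of TGFA was 2 (exact p = 0.5) and that of IGFBP3 was 1. When genes of every type competed for peaks, the difference of TGFA was 3 (exact p = 0.25), since TGFA −43 kb then went to a gene that does not code for protein.

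TGFA, the ligand of EGFR, was bound at a distance. TGFA −43 kb was called in 27 libraries, and its HIF-2α peaks in RCC4 ranked 9 of 4317 and 9 of 2990 by score. The HIF-1α peaks there ranked 261 of 5680 and 322 of 2120. In WT HKC-8 the HIF-2α ranks were 249 of 4537 and 124 of 6749, and the HIF-1α ranks 692 of 1913 and 378 of 1535. HIF-1α thus had calls in both libraries of WT HKC-8 and of RCC4, but in none of the 8 HIF-1α libraries of the severity and duration experiment. HIF-2α was called there in both libraries in 3% oxygen (ranks 95 of 558 and 551 of 977), both at 6 h (777 of 1417 and 257 of 1493), both at 16 h (390 of 1198 and 171 of 1051) and 1 of 2 at 48 h (56 of 1383). No HepG2 library had a call at the site. The 11 HIF-2α against 4 HIF-1α calls gave an exact permutation p of 0.00463, and 0.166 when that p was adjusted over the 3302 sites tested. Across those sites, 0% passed the adjusted threshold, and at an unadjusted p under 0.05 the share was 8.06% (266 sites) with more HIF-2α and 3.00% (99 sites) with more HIF-1α calls. Without HepG2 the difference of 7 was unchanged (adjusted permutation p = 0.0904, 2264 sites).

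A second site of this gene, TGFA +29 kb, lies in an intron (chr2:70751032-70752952). It was called in 6 HIF-2α, 3 HIF-1β and no HIF-1α libraries. Of the HIF-2α calls, 2 were in RCC4 (ranks 663 of 4317 and 1422 of 2990), 2 in HIF-1α KO cells, 1 in WT HKC-8 and 1 at 6 h. In the comparison of isoforms the counts were 4 and 0, and the exact permutation p was 0.0833 (adjusted p = 0.438, and 0.274 without HepG2). The other 5 TGFA sites were each called in 1 or 2 libraries.

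AREG, the other EGFR ligand in the set, had no peak in any list, and no peak of any kind lay within 100 kb of its start sites. GRCh37 carries a near-identical copy of the gene, AREGB, on the same chromosome, and reads of low mapping quality had been removed before peaks were called. Of the 9821 windows of 50 bases in AREG, 92.95% occurred again within 2 Mb of it, and 94.8% of those in the 10 kb upstream did. AREGB had 5 peaks in the 50 lists. The lack of AREG peaks is not read as lack of binding. The rest of the 100 kb was not checked for such repeats, and the part of repeats in the lack of peaks was not tested.

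EGFR, the receptor of both ligands and the longest of the 8 genes, carried 19 of the 47 sites, among them the one called in most libraries. EGFR +167 kb was called in 8 HIF-1α, 11 HIF-2α and 14 HIF-1β libraries, and in all 3 cell lines. In WT HKC-8 its HIF-1β peaks ranked 77 of 6199 and 8 of 8279, its HIF-2α peaks 112 of 4537 and 57 of 6749, and its HIF-1α peaks 286 of 1913 and 208 of 1535. In RCC4 the HIF-2α ranks were 237 of 4317 and 185 of 2990, and the HIF-1α ranks 566 of 5680 and 431 of 2120. In HepG2 the ranks were 1114 of 3470 and 1617 of 6851 in the libraries labelled HIF-1α and 2720 of 5187 and 1757 of 4499 in those labelled HIF-2α. Both isoforms were called in both libraries of WT HKC-8, RCC4 and HepG2. In the severity and duration experiment the site had no HIF-1α call and 3 HIF-2α calls, 1 each at 6, 16 and 48 h (ranks 945 of 1493, 209 of 1051 and 681 of 1383). HIF-1β was called there in both libraries in 3% oxygen (554 of 1205 and 472 of 944), where neither α isoform was called. It was also called in both at 16 h (433 of 1357 and 461 of 1793) and in 1 at 48 h (250 of 1066). The counts of 9 HIF-2α and 6 HIF-1α libraries had an exact permutation p of 0.25 and an adjusted p of 0.901, and without HepG2 the difference was again 3 (exact p = 0.25, adjusted p = 0.615).

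The next EGFR sites were called in fewer conditions. EGFR +47 kb (chr7:55132595-55134273, intron) had 5 HIF-1α and 4 HIF-2α calls in the comparison of isoforms (exact permutation p = 1), the only tested site of the 13 with more HIF-1α calls, and the counts were equal without HepG2. EGFR −51 kb (chr7:55034616-55035814, intergenic) had 3 and 4 (exact permutation p = 1) and no call in HepG2. In WT HKC-8 the HIF-2α ranks of EGFR +47 kb were 502 of 4537 and 911 of 6749 and the HIF-1α ranks 1355 of 1913 and 642 of 1535. For EGFR −51 kb they were 251 of 4537 and 530 of 6749, and 851 of 1913 and 1166 of 1535. The lists differ in length, so the ranks are not compared between isoforms. No library of the severity and duration experiment had a call at either site. EGFR +111 kb (intron) was called in 11 libraries, and its HIF-2α peaks ranked 2164 of 4537 and 1598 of 6749 in WT HKC-8 and 639 of 5228 and 1160 of 6540 in HIF-1α KO cells. Its 2 HIF-1α calls were in 1 WT HKC-8 library (1442 of 1913) and 1 RCC4 library (4067 of 5680). EGFR +227 kb, EGFR +68 kb and EGFR +114 kb had 4 HIF-2α calls each and no HIF-1α call, in WT or HIF-1α KO cells except for 1 RCC4 library at EGFR +114 kb.

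Another group of EGFR sites was called in HepG2 only. EGFR +159 kb was called in all 6 HepG2 libraries, where it ranked 522 of 3470 and 296 of 6851 in those labelled HIF-1α, 759 of 5187 and 467 of 4499 in those labelled HIF-2α, and 440 of 6171 and 504 of 3986 for HIF-1β. EGFR +162 kb was called in 5 and EGFR +160 kb in 4 of them. None of these 3 sites was called in any of the 44 HKC-8 or RCC4 libraries. EGFR +160 kb was called in both libraries labelled HIF-1α and neither labelled HIF-2α, and it was the only such site among these genes in any condition. It had 2 HIF-1α calls in all and was not tested.

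AXL, the receptor of GAS6, had the largest difference between the isoforms of the 8 genes. AXL +7 kb, which lies 0.491 kb from an alternative start of the gene, was called in 10 HIF-2α, 9 HIF-1β and 2 HIF-1α libraries. Both HIF-1α calls were in HepG2 (ranks 765 of 3470 and 1092 of 6851), where the libraries labelled HIF-2α also had calls (731 of 5187 and 809 of 4499). HIF-2α had calls at 6 h (211 of 1493, 1 library), at 16 h (158 of 1198 and 163 of 1051), in WT HKC-8 (2500 of 4537 and 3710 of 6749), in HIF-1α KO cells (3242 of 5228 and 2439 of 6540) and in 1 RCC4 library (511 of 4317). The 16 h and WT groups had the same line, oxygen and time, but lists of different length. Counts of 8 and 2 libraries differed with an exact permutation p of 0.0139 and an adjusted p of 0.228, and without HepG2 the difference was again 6 libraries (adjusted p = 0.140).

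AXL +4 kb (chr19:41728977-41730494, intron) was called in 10 HIF-2α libraries, 4 HIF-1β libraries and none of the HIF-1α libraries. In 3% oxygen it ranked 49 of 558 and 555 of 977, at 6 h 103 of 1417 in 1 library, at 16 h 162 of 1198 and 536 of 1051, in WT HKC-8 3840 of 4537 and 2639 of 6749, and in RCC4 1064 of 4317 in 1 library. The 8 against 0 calls gave an exact permutation p of 0.00231, with an adjusted p of 0.142, and of 0.0690 without HepG2. With lists of equal length the difference was 5 (exact permutation p = 0.0417). Within 100 bases of its centre the site held 2 AP-1 motifs and no HRE core, and the whole site of 1518 bases held 2 HRE cores. The remaining site, at the AXL 5′ end, was called in 2 libraries, a HIF-1α library of HIF-2α KO cells (1067 of 1271) and a HIF-1β library of HepG2 (2701 of 3986).

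MET, the receptor of hepatocyte growth factor, was called most at MET +35 kb, in 3 HIF-1α, 6 HIF-2α and 7 HIF-1β libraries. Its HIF-2α peaks ranked 480 of 4317 and 299 of 2990 in RCC4 and 615 of 4537 and 1540 of 6749 in WT HKC-8. Its HIF-1α peaks ranked 1634 of 5680 in 1 RCC4 library and 881 of 1913 and 587 of 1535 in WT HKC-8. No HepG2 library had a call. The counts of 4 HIF-2α and 3 HIF-1α libraries gave an exact permutation p of 1, with and without HepG2. MET +45 kb was called in 6 libraries, and its peaks lay in the lower part of every list, the highest at 570 of 944. The site at the MET 5′ end was called in 5 libraries, among them both RCC4 HIF-1β libraries (771 of 911 and 1161 of 1305), so its peaks were near the foot of those lists.

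CXCR4, the receptor of CXCL12, had 4 sites, of which 3 lay 42 to 47 kb beyond its 5′ end on the downstream side and all were intergenic. CXCR4 +47 kb was called in both HIF-2α libraries of WT HKC-8 (1932 of 4537 and 2484 of 6749) and in 1 HIF-1β library (2505 of 8279). CXCR4 +43 kb was called in 1 HIF-2α library (1694 of 6749) and in both HIF-1β libraries (2825 of 6199 and 3891 of 8279) of the same cells. The 8 peaks lay in 4 WT HKC-8 libraries and 1 RCC4 library, none was a HIF-1α peak, and the gene was not tested.

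IGFBP1, a binding protein made by liver, was called in HepG2 only, in 5 of 6 libraries at each of 2 upstream sites. IGFBP1 −6 kb ranked 153 of 3470 and 277 of 6851 in the libraries labelled HIF-1α, 797 of 5187 and 53 of 4499 in those labelled HIF-2α, and 1003 of 6171 in 1 HIF-1β library. IGFBP1 −3 kb (chr7:45924148-45925879, intergenic) ranked 342 of 3470, 587 of 6851, 860 of 5187, 124 of 4499 and 1703 of 6171 in the same libraries. Both sites were called in the 4 libraries labelled HIF-1α or HIF-2α, and none of the 44 libraries from HKC-8 or RCC4 had a call. The best rank at each site was in the second library labelled HIF-2α.

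IGFBP3 was called at IGFBP3 −57 kb in 6 HIF-1α, 11 HIF-2α and 11 HIF-1β libraries. The HIF-2α ranks were 99 of 4537 and 139 of 6749 in WT HKC-8 and 154 of 4317 and 254 of 2990 in RCC4. The HIF-1α ranks were 237 of 1913 and 116 of 1535 in WT HKC-8 and 1064 of 5680 in 1 RCC4 library. HIF-2α was also called in 4 libraries of the severity and duration experiment, 1 at 6 h (256 of 1493), 2 at 16 h (306 of 1198 and 143 of 1051) and 1 at 48 h (336 of 1383), where HIF-1α had no call. In the comparison of isoforms the counts were 9 and 4, with an exact permutation p of 0.0833 (adjusted p = 0.438), and of 0.0417 without HepG2 (adjusted p = 0.228). IGFBP3 −52 kb was called in 4 HepG2 libraries and in no other line.

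**Figure D4:**
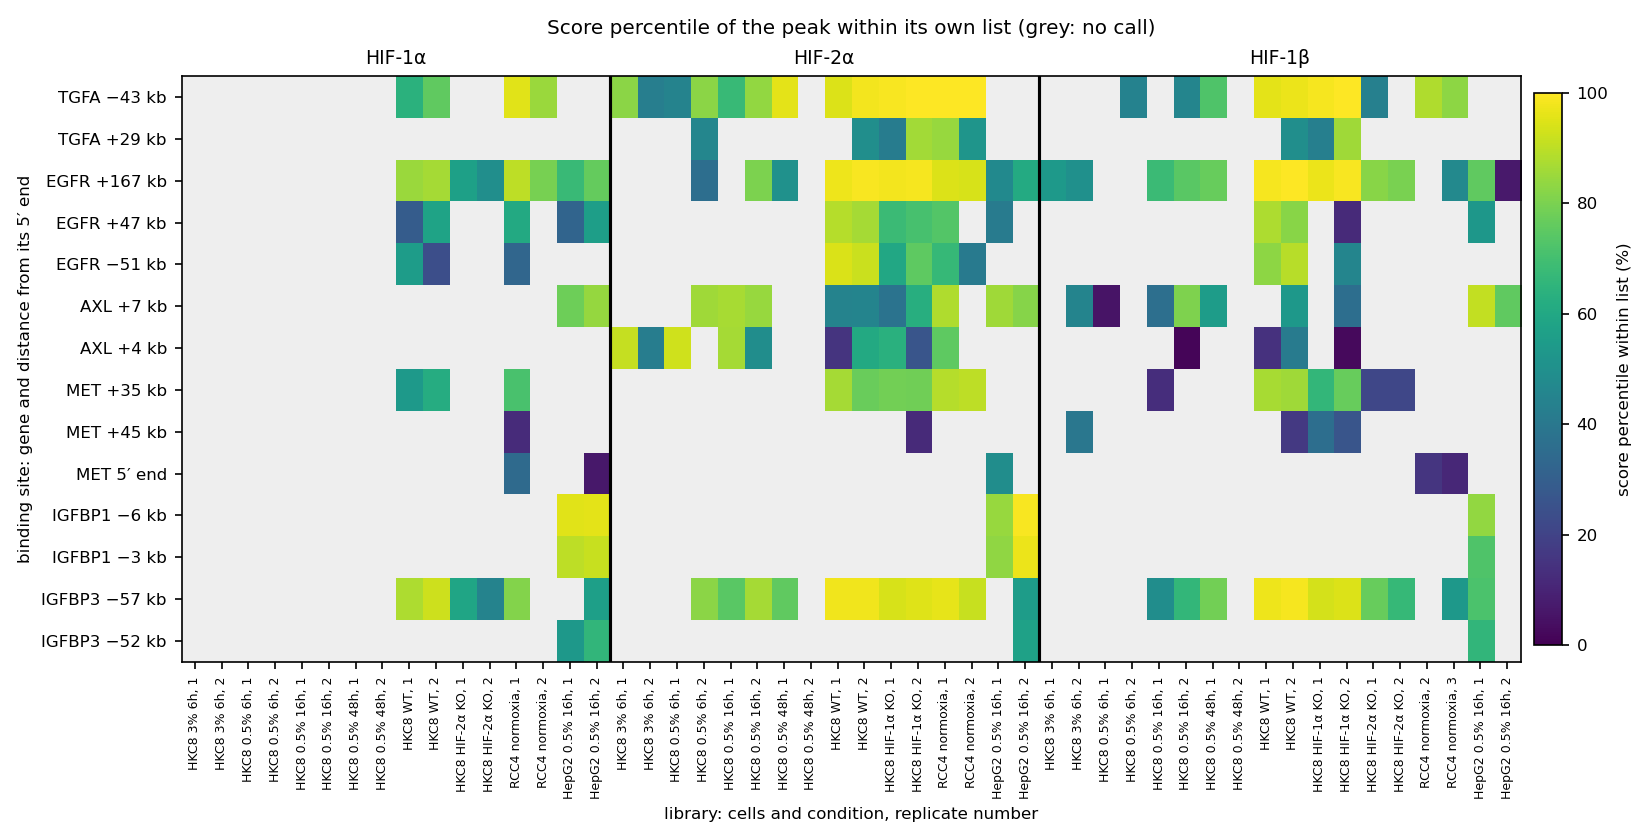
Score percentile, in percent, of the peak at each of 14 sites (rows) in each of the 50 libraries (columns, grouped by antibody), where the percentile is the share of the peaks of the same list with a score at or below it. The percentile depends on the length of the list, and light grey means no call. In the 8 HIF-1α columns of the severity and duration experiment all 14 rows are grey, and both IGFBP1 rows are coloured in HepG2 columns only.

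Over all 21 sites called in at least 4 libraries, 13 could be tested between the isoforms. Of these, 9 had more HIF-2α calls, 3 had equal counts and 1 had more HIF-1α calls, against 45.9%, 28.4% and 25.7% of all 3302 sites tested. The median difference was 1 library, against 0 over all sites. Without HepG2, 10 sites could be tested, of which 9 had more HIF-2α calls, against 58.6% of the 2264 sites then tested, and 1 had equal counts, and the median difference was 3.5 libraries, against 1 over all those sites. Sites can also be classed within a condition, where HIF-2-only means called in both HIF-2α and neither HIF-1α library. In WT HKC-8, 12 sites at these genes were called in both libraries of at least 1 isoform. Of the 12, 5 were HIF-2-only (58.5% of all such sites in that condition), 0 were HIF-1-only (3.57%) and 6 were called in both libraries of both isoforms (21.8%). The 5 were AXL +4 kb, AXL +7 kb, CXCR4 +47 kb, EGFR +68 kb and EGFR +227 kb. At 16 h in the severity and duration experiment all 4 such sites (AXL +4 kb, AXL +7 kb, TGFA −43 kb and IGFBP3 −57 kb) were HIF-2-only, against 39.7% of all sites. WT HKC-8 had the same line, oxygen and time, and there TGFA −43 kb and IGFBP3 −57 kb were called in both libraries of both isoforms. In 3% oxygen both such sites (AXL +4 kb and TGFA −43 kb, 66.7% of all sites) and at 6 h the single site (49.4%) were HIF-2-only, and at 48 h there was none. Of all sites, 16.7% in 3% oxygen, 25.2% at 6 h and 25.5% at 16 h were HIF-1-only, and 4.86%, 9.87% and 15.8% were called in both libraries of both isoforms, classes that held none of the sites at these genes. In RCC4, 1 of 6 was HIF-2-only (17.9%), 0 were HIF-1-only (15.6%) and 2 were called in both libraries of both isoforms (28%). In HepG2 as labelled, 0 of 9 were HIF-2-only (1.99%), 1 was HIF-1-only (3.40%) and 5 were called in both libraries of both isoforms (50.8%).

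Whether oxygen or duration changed the calls was examined for each gene in the severity and duration experiment, 6 libraries against 6 over the 3 antibodies. TGFA was called in 2 libraries in 3% oxygen, 3 at 6 h, 3 at 16 h and 2 at 48 h. AXL was called in 3, 3, 4 and 1, EGFR in 2, 1, 4 and 2, IGFBP3 in 0, 1, 4 and 2, and MET in 1, 0, 1 and 0. CXCR4, IGFBP1 and AREG had no call. EGFR and IGFBP3 thus had their most calls at 16 h. Against 6 h, the difference of 3 libraries gave an exact permutation p of 0.278 for EGFR and 0.167 for IGFBP3. No gene passed the adjusted threshold in any of the 3 comparisons, which share the 6 h libraries. The genes tested numbered 619 for 3% against 0.5% oxygen (0% passed), 821 for 16 h against 6 h (0%) and 589 for 48 h against 6 h (0%). The smallest exact permutation p in each was 0.00926, with an adjusted p of 1, and at an unadjusted p under 0.05 there were 9, 6 and 4 genes, none of them a growth factor or receptor gene of this set. In 3% oxygen against 0.5% oxygen, TGFA was called in 1 library fewer and AXL in as many, and 51.2% of all tested genes were called in fewer. At 16 h against 6 h none of the 4 tested growth factor and receptor genes (TGFA, EGFR, AXL and IGFBP3) was called in fewer libraries, against 20.2% of all genes tested. At 48 h against 6 h, both tested genes of the set were called in fewer libraries, AXL in 2 fewer (exact permutation p = 0.5) and TGFA in 1 fewer (exact permutation p = 1), and fewer calls were found for 54.7% of all tested genes.

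The knockouts asked whether one isoform alters where the other binds, and were compared as counts, because 2 libraries against 2 cannot give a p below 0.33. Of the 12 sites called in both HIF-2α libraries of WT HKC-8, 11 were called in both HIF-2α libraries of HIF-1α KO cells and 1, CXCR4 +47 kb, was called in neither. Over all sites, 69.4% were called in both and 17.8% in neither. From the first library of each group alone the count was 4 of 15 (34.7% over all sites), and from the second 6 of 19 (35.5%). TGFA −43 kb ranked 58 of 5228 and 5 of 6540 in those HIF-2α lists, and EGFR +167 kb 89 of 5228 and 78 of 6540. In the other direction, EGFR +2 kb was called in both HIF-2α libraries of HIF-1α KO cells (3015 of 5228 and 6040 of 6540) and in neither of WT cells, 1 of 14 sites against 17.1% over all sites. Neither HIF-1β list pair of the knockouts had such a gain, with 0 of 10 sites of HIF-1α KO cells (6.51% over all sites) and 0 of 3 of HIF-2α KO cells (1.62%) called in neither WT library. HIF-1α had 2 sites in HIF-2α KO cells, and 0 of the 2 were called in neither WT library (7.52%).

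HIF-1α was called in both WT HKC-8 libraries at 6 sites, of which 4 (TGFA −43 kb, EGFR −51 kb, EGFR +47 kb and MET +35 kb) were called in neither HIF-1α library of HIF-2α KO cells and 2 (IGFBP3 −57 kb and EGFR +167 kb) in both. Over all sites, 48.0% were called in both and 28.2% in neither. The HIF-1α lists of the HIF-2α KO cells were shorter, at 1271 and 915 peaks, against 1913 and 1535 in WT cells, and the part of list length in these losses was not tested. From read signal rather than called peaks, the study reports only a slight fall in HIF-1α binding in these cells. It also reports slightly less HIF-1α protein in them, whose part was not tested here either. At the sites that remained, the HIF-1α ranks went from 286 of 1913 and 208 of 1535 in WT cells to 549 of 1271 and 463 of 915 in HIF-2α KO cells for EGFR +167 kb, and from 237 of 1913 and 116 of 1535 to 526 of 1271 and 507 of 915 for IGFBP3 −57 kb. These lists differ in length too, and the ranks are not read as a change.

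HIF-1β was called in both WT HKC-8 libraries at 11 sites. In HIF-1α KO cells, 7 of the 11 were called in both HIF-1β libraries, 3 in 1, and CXCR4 +43 kb in neither. Of all sites, 47.4% were in both and 31.3% in neither. In HIF-2α KO cells, 3 (IGFBP3 −57 kb, EGFR +167 kb and MET +35 kb) were called in both (27.3% of all sites). Another 2 (TGFA −43 kb and EGFR +227 kb) were called in 1, and 6 in neither (52.9% of all sites). The 6 were AXL +4 kb, CXCR4 +43 kb, EGFR −51 kb, EGFR +47 kb, EGFR +68 kb and EGFR +111 kb. TGFA −43 kb ranked 246 of 6199 and 243 of 8279 for HIF-1β in WT cells, 50 of 3387 and 7 of 5786 in HIF-1α KO cells, and 1439 of 2550 in the 1 library of HIF-2α KO cells that called it. MET +35 kb ranked 820 of 6199 and 1166 of 8279 in WT cells, 1141 of 3387 and 1346 of 5786 in HIF-1α KO cells, and 2007 of 2550 and 1642 of 2085 in HIF-2α KO cells. HIF-1β lists held 6199 and 8279 peaks in WT cells, 3387 and 5786 in HIF-1α KO cells and 2550 and 2085 in HIF-2α KO cells, so the share of sites lost at these genes moved with list length, whose part was not tested. From the first library of each group alone, the sites without a HIF-1β call were 5 of 12 in HIF-1α KO (56.9% over all sites) and 8 of 12 in HIF-2α KO cells (64.3%). From the second they were 3 of 17 (47.6%) and 13 of 17 (77.5%).

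**Figure D5:**
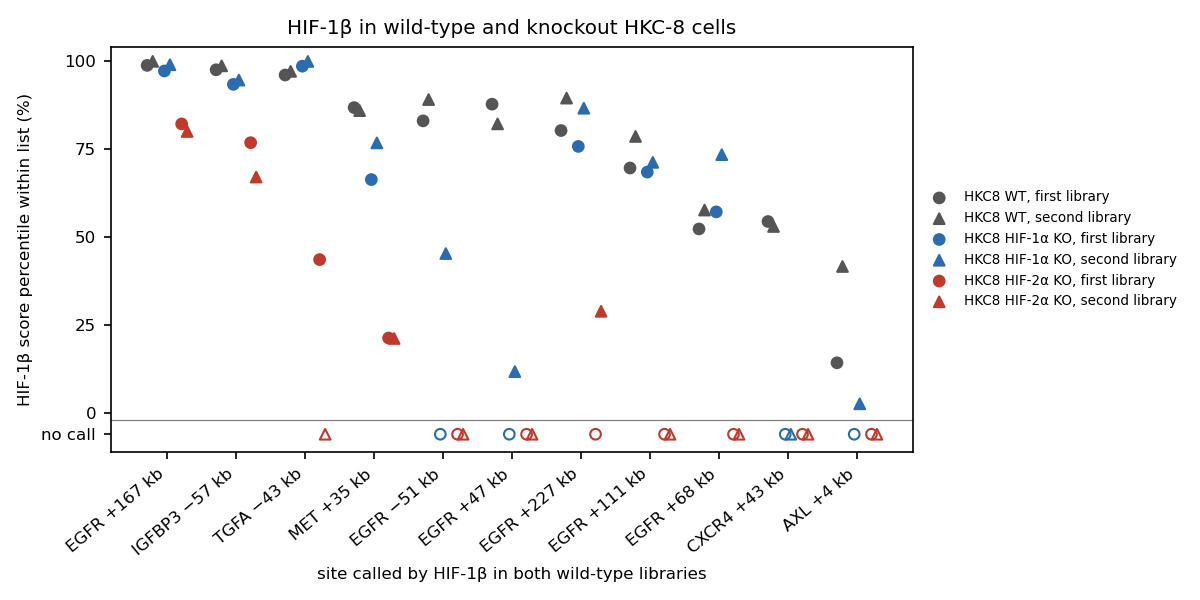
HIF-1β score percentile within its list, in percent, at the 11 sites called by HIF-1β in both WT HKC-8 libraries, for the 2 libraries of WT, HIF-1α KO and HIF-2α KO cells. Open symbols below the line are libraries without a call. In HIF-2α KO cells 6 of the 11 sites have no call in either library, and in HIF-1α KO cells 1 has none.

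HIF-1β was present at most HIF-α sites of these genes. Over all groups, 63 cases in which a site was called in both libraries of a HIF-α antibody could be set beside the HIF-1β lists of the same cells and condition. In 58 of the 63 a HIF-1β peak was called in at least 1 library (86.4% over all sites) and in 39 in both (68.9%). The 5 without a HIF-1β call were HIF-2α sites, namely AXL +4 kb and TGFA −43 kb in 3% oxygen and TGFA +29 kb, EGFR −51 kb and MET +35 kb in RCC4, whose HIF-1β lists held 911 and 1305 peaks. In those groups 57.8% (3% oxygen) and 38.4% (RCC4) of all HIF-2α sites had a HIF-1β call.

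Between cell lines, line and experiment cannot be told apart, nor can oxygen in RCC4. Of the 12 HIF-2α sites of WT HKC-8, 3 were called in neither RCC4 HIF-2α library (65.3% of all sites) and 8 in neither HepG2 library labelled HIF-2α (85.9%). TGFA −43 kb, IGFBP3 −57 kb, EGFR −51 kb, EGFR +167 kb and MET +35 kb were called in both HIF-2α libraries of WT HKC-8 and of RCC4, both of them kidney lines. These are 5 of the 12, against 18.7% of all sites. AXL +7 kb and EGFR +167 kb were the sites called in both HIF-2α libraries of WT HKC-8 and of HepG2 as labelled, 2 of the 12, against 8.13% of all sites. Of the 6 HIF-1α sites of WT HKC-8, 0 were called in neither RCC4 HIF-1α library (35.1%), though 4 were called only in the first of them, and 3 in neither HepG2 library labelled HIF-1α (53.4%). Single libraries moved these counts. From the second libraries alone, 13 of 19 HIF-2α sites of WT HKC-8 were not called in RCC4 (86.1% over all sites) and 16 of 19 not in HepG2 (91.6%), and 4 of 6 HIF-1α sites were not called in RCC4 (69.3%). Of the 11 HIF-1β sites of WT HKC-8, 8 were called in neither RCC4 library (88.4%) and 8 in neither HepG2 library (78.8%). TGFA −43 kb was the one called in both HIF-1β libraries of WT HKC-8 and of RCC4 (6.20% of all sites).

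The reverse comparison showed which sites were found in RCC4 or HepG2 and not in HKC-8. Each site called in both RCC4 libraries was also called in at least 1 WT HKC-8 library for HIF-1α (0 of 2 called in neither, against 42.3% of all sites) and for HIF-2α (0 of 6, against 30.0%). For HIF-1β it was 1 of 2, the MET 5′ end (20.5%). Against HepG2, 1 of 2 HIF-1α sites (41.8%), 4 of 6 HIF-2α sites (74.1%) and 2 of 2 HIF-1β sites (31.2%) of RCC4 were called in neither library. Of the 9 sites called in both HepG2 libraries labelled HIF-1α, 7 were called in neither HIF-1α library of WT HKC-8 (76.2%), namely AXL +7 kb, both IGFBP1 sites, IGFBP3 −52 kb, EGFR +159 kb, EGFR +160 kb and EGFR +162 kb, and the same 7 in neither of RCC4 (70.6%). Of the 5 HepG2 sites labelled HIF-2α, 3 (both IGFBP1 sites and EGFR +159 kb) were called in neither HIF-2α library of WT HKC-8 (65.3%) and the same 3 in neither of RCC4 (70.0%). For HIF-1β it was 3 of 5 against WT HKC-8 (55.2%) and 4 of 5 against RCC4 (77.3%). Over all 50 libraries, TGFA −43 kb was called in 21 of 38 HKC-8, 6 of 6 RCC4 and 0 of 6 HepG2 libraries, and EGFR +167 kb in 22, 5 and 6.

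Motif content was compared with that of the whole series. Within 100 bases of the centre, 28 of the 47 sites (59.6%) held an HRE core, against 33.9% of all 50169 sites, and 11 (23.4%) held an AP-1 motif, against 7.98%. Since sites called in many libraries hold more motifs across the series, the sites called in at least 4 libraries were also set side by side. Of the 21 at these genes, 15 (71.4%) held an HRE core, against 61.1% of all such sites, and 7 (33.3%) an AP-1 motif, against 15.5%. Among the 9 called in at least 10 libraries, 7 held an HRE core (69.5% of all such sites) and 5 (EGFR +167 kb, EGFR −51 kb, EGFR +111 kb, AXL +7 kb and AXL +4 kb) an AP-1 motif (18.1%). Over whole sites in place of the window, the order for the HRE core changed: 38 of 47 (80.9%) held one, against 56.5% of all sites, but 90.5% against 92.4% of those in at least 4 libraries and 88.9% against 97.1% of those in at least 10. The 9 sites belong to 5 genes, so they are not independent, and no test was run.

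The other genes of these pathways were counted from a list of 28. A call in at least 1 library was found for 19 (67.9%, against 58.1% of the 20163 protein-coding genes), and 9 could be tested between the isoforms. Of the 9, 3 had more HIF-2α calls, against 44.7% of all genes tested (MERTK 6 against 2, NRG1 7 against 5 and IGF1 5 against 3), 1 had more HIF-1α calls (HBEGF, 2 HIF-2α against 4 HIF-1α), 5 had equal counts (ERBB3, ERBB4, GAS6, IGF1R and INSR), and none reached an unadjusted exact permutation p of 0.05. MERTK, a receptor related to AXL, had the largest difference of the 9, 4 libraries (exact permutation p = 0.211). GAS6, the ligand of AXL, was called in 3 libraries of each isoform, and IGF1R, the receptor of the growth factors that IGFBP1 and IGFBP3 bind, in 6 of each. CXCL12, the ligand of CXCR4, was called in 3 HIF-2α and 0 HIF-1α libraries. The median difference of the 9 genes was 0, as over all genes tested. Without HepG2, 7 could be tested, with 3 (MERTK, NRG1 and IGF1) called in more HIF-2α libraries against 53.1% of all genes, 3 equal and HBEGF called in more HIF-1α libraries, and none reached an unadjusted exact permutation p of 0.05.

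For the 5 genes called in at least 10 libraries, the 3 genes outside the set with the most similar pattern of calls were found with the Jaccard index over the 50 libraries, among 2716 genes. TGFA was nearest to PIK3R6 (index 0.813, 26 libraries shared), TMEM44 and CCN1. EGFR was nearest to CYREN and ERGIC1 (0.861 each, 31 shared) and FTH1. AXL was nearest to GSE1 (0.722, 26 shared), ETS2 and PAWR, MET to RBCK1 (0.760, 19 shared), LAMP1 and GLI3, and IGFBP3 to ERGIC1 and KDM2B (0.824 each, 28 shared) and PAM. The index was lowest for AXL among the 5. These indices share libraries and list lengths and are a description only.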

How the data were processed

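The study's libraries were 50 ChIP-seq libraries with 1 peak list each, and 16 input samples without a list, not analysed here. Per the labels and the study's methods, the authors trimmed reads (Trim Galore 0.3.3), aligned them to GRCh37 with BWA 0.7.5a-r405, removed reads of low mapping quality (SAMtools 0.1.19) and reads in black-listed regions (BEDTools 2.17.0), marked duplicates (Picard 1.106) and called peaks with MACS against input. The study also used the T-PIC caller and a filter on counts under peaks, and the deposited lists hold MACS peaks only, numbered without gaps in all 50 lists, so no such filter is seen in them. The MACS version is not given in the sources used here. The deposited score of each peak is the MACS score, −10 times the log10 of its p-value, and the lowest in any list was 50. Read depth is unknown, so no interval was computed, and scores were compared only as ranks within a list.

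Peaks on chromosomes 1 to 22, X and Y were assigned by their centre to the nearest of 20163 protein-coding genes (GENCODE 44 lifted to GRCh37), within the gene body or 100 kb of a start. Overlapping peaks were merged into sites over the 50 lists. A gene or site called in at least 4 libraries of a comparison was tested by an exact two-sided permutation test of the number of libraries with a call, with labels permuted within condition, or within antibody for oxygen and duration. P-values were adjusted by the Benjamini-Hochberg method over all features tested, with a threshold of 0.05. The procedure was tested on simulated data, in which the changed sites differed strongly between the isoforms in every condition. Smaller differences were not simulated.

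The genes, lists and tests were chosen with earlier results of these data known. Sites named in full were, for each gene, up to 3 called in the most libraries if called in at least 4. Other sites were named where a count of 5 or fewer, or a class, fell on them, after their values were seen. Similarity of pattern used genes called in at least 10 libraries. Alternatives were a replicate block, equal list lengths, a score of at least 100, leaving out replicates, HepG2 or another condition, genes of all types, the nearest start without gene bodies, no minimum of calls, a distance of 50 kb and peaks cut to 200 bp. Motifs were searched on both strands within 100 bp of site centres. Python 3.11.15, numpy 2.4.6, pandas 2.3.3, scipy 1.17.1, pysam 0.24.0 and matplotlib 3.10.9 were used.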

Additional observations from a re-analysis of the deposited data

How the results depend on the processing

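The gene comparison of HIF-2α with HIF-1α gave 0 genes past the adjusted threshold in the reported setting and under each alternative run. At an unadjusted p under 0.05 there were 151 genes with more HIF-2α and 76 with more HIF-1α calls as reported, 134 and 101 with lists of equal length, 72 and 38 at a score of at least 100, 5 and 1 without replicate 2, and 4 and 3 without replicate 1. The AXL difference stayed positive throughout (4 to 9 libraries), as did that of TGFA (2 to 7), whereas that of EGFR was −1 when genes of all types were counted, in place of 2. The count of sites past the threshold was 37 without HepG2, 13 with lists of equal length, 2 at a score of at least 100 and 3 with peaks cut to 200 bp, in place of 0, and the cause was not tested. Of the 2264 sites tested without HepG2, 10 were at growth factor or receptor genes, and no such site was among the 37. With so few tested, this is not read as a result about these genes. Counting genes of all types left 164 of the 294 peaks. Over whole sites, 22 of 47 in place of 11 held an AP-1 motif (46.8%, against 20.6% of all sites). At a score of at least 100, 2 of 10 HIF-1β sites were lost in HIF-1α KO cells (33.1% over all sites) and 2 of 4 HIF-1α sites in HIF-2α KO cells (28.8%).

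With 1 library of each group left out (chosen after seeing the data, as were the score alternatives for knockouts and the omission of each condition other than HepG2), the sites not called ranged as follows. HIF-2α lost 4 to 6 of 15 to 19 WT sites in HIF-1α KO cells (34.7% to 35.5% over all sites), and HIF-1β 3 to 5 of 12 to 17 (47.6% to 56.9%). In HIF-2α KO cells HIF-1α lost 4 to 5 of 6 to 7 (49.6% to 60.4%) and HIF-1β 8 to 13 of 12 to 17 (64.3% to 77.5%). RCC4 lacked 0 to 4 of 6 to 7 HIF-1α sites of WT HKC-8 (45.5% to 69.3%), 5 to 13 of 15 to 19 HIF-2α sites (70.0% to 86.1%) and 11 to 14 of 12 to 17 HIF-1β sites (92.0% to 93.8%). HepG2 lacked 3 to 5 HIF-1α sites (61.3% to 85.2%), 12 to 16 HIF-2α sites (89.2% to 91.6%) and 9 to 15 HIF-1β sites (81.1% to 87.9%) of the same totals. Fewer libraries were then required, by construction.

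The replicate numbers did not pair the libraries alike in all conditions. Deviations of same-numbered libraries correlated at −0.0146 (3% oxygen), 0.0418 (6 h), 0.0400 (16 h), 0.141 (48 h), 0.0234 (WT), 0.217 (RCC4) and −0.483 (HepG2). With the replicate block, 0 genes and 0 sites passed between the isoforms (105 and 43 genes, and 176 and 60 sites, at an unadjusted p under 0.05), and 0 genes in each oxygen and duration comparison (1 gene in each at an unadjusted p under 0.05). With the HepG2 pairing crossed, 0 and 0 passed (105 and 55 genes, and 177 and 76 sites, at an unadjusted p under 0.05). Each gene depends on calls in 2 libraries per group from lists of unequal length, and a missing call is not a lack of binding.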
